A study of Mus musculus with 10 samples.

Results

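A set of 10 genes of the liver X receptor (LXR) pathway and of cholesterol efflux and trafficking were followed in mouse peritoneal macrophages with and without oxidized low-density lipoprotein (ox-LDL). They were chosen by name from the rows of the gene count table, as the receptor genes Nr1h3, Nr1h2 and Rxra, the efflux genes Abca1, Abcg1 and Apoe, the LXR target genes Mylip and Arl4c, and the lysosomal cholesterol genes Npc1 and Npc2. All 10 had a row among the 39488 of the table, and all 10 were among the 12654 genes with enough reads to be tested.

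The cells were elicited with thioglycollate in C57BL/6 mice aged 8 weeks, and total RNA gave 10 libraries, 5 per group, which the series describes as biological replicates. Control cells are labelled untreated. The ox-LDL cells were first primed with 100 ng/ml of lipopolysaccharide (LPS), a component of bacterial walls that activates macrophages, and then held with 100 µg/ml ox-LDL for 16 h. By these labels LPS and ox-LDL cannot be told apart in any difference reported here, and a figure legend of the study can also be read as priming of both groups.

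Macrophages that take up modified lipoproteins break down the cholesterol esters in lysosomes, where Npc2 and then Npc1 pass the free cholesterol on toward other membranes. Oxysterols formed from it bind the LXRs, which sit on DNA as heterodimers with retinoid X receptors and switch on target genes. Among these targets Abca1 and Abcg1 export cholesterol to apolipoprotein A-I and high-density lipoprotein, and apolipoprotein E is a secreted acceptor.

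The libraries held between 19257131 and 20687289 estimated counts, so depth was alike, but they were not alike in composition. Deviations of genes from their group mean followed gene length in most libraries, with rank correlations across genes from -0.66 in ox-LDL 2 to 0.53 in ox-LDL 4. Short genes stood high and long genes low in ox-LDL 2, control 1 (-0.59) and control 4 (-0.48). The ox-LDL 2 normalization factor of 0.593 was the lowest, against 0.837 to 1.193 in the other libraries. All 8 macrophage markers were present in all libraries, and their sum, on the CPM scale by library size alone, was 23168 to 42854 in controls and 13363 to 28376 in ox-LDL. Most of that sum was Lyz2, at 20597 to 40915 CPM in controls and 9361 to 26339 in ox-LDL. Itgam had 168 to 519 CPM in controls and 41.1 to 322 in ox-LDL, whereas Adgre1 had 179 to 344 in controls and 408 to 1961 in ox-LDL. The part of these marker levels in the results below was not tested. In bulk RNA, fewer cells of a type and less RNA per cell cannot be told apart. Levels below are CPM, counts scaled to a common library size, after TMM normalization, which also adjusts for composition, as mean ± SD with n = 5 per group unless another scale is named.

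Abca1 and Arl4c rose in the ox-LDL group, by 4.28-fold and 6.18-fold. Abcg1 was 2.09-fold higher but missed the threshold, an adjusted p below 0.01 in edgeR's quasi-likelihood test over all genes tested. The other 7 genes did not pass it. The counts for the 10 genes were thus 2 higher and 0 lower, where 9.4% of all genes tested were higher and 5.35% lower. Of the 10 genes, 6 were higher and 1 lower at an unadjusted p below 0.05, against 23.0% and 15.8% of all genes tested. Both DESeq2 and limma-voom called 3 of the 10 higher and 0 lower, where DESeq2 called 13.9% of all genes higher and 9.83% lower and limma-voom 9.1% and 6.33%. Both risen genes also passed a log2 fold change of 2, as did 4.78% of all genes tested in that direction. At an adjusted p below 0.05 the counts were 3 higher and 0 lower, against 16.2% and 10.4% of all genes tested. The median log2 fold change of the 10 genes was 0.70, against 0.10 over all genes tested.

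**Figure D1:**
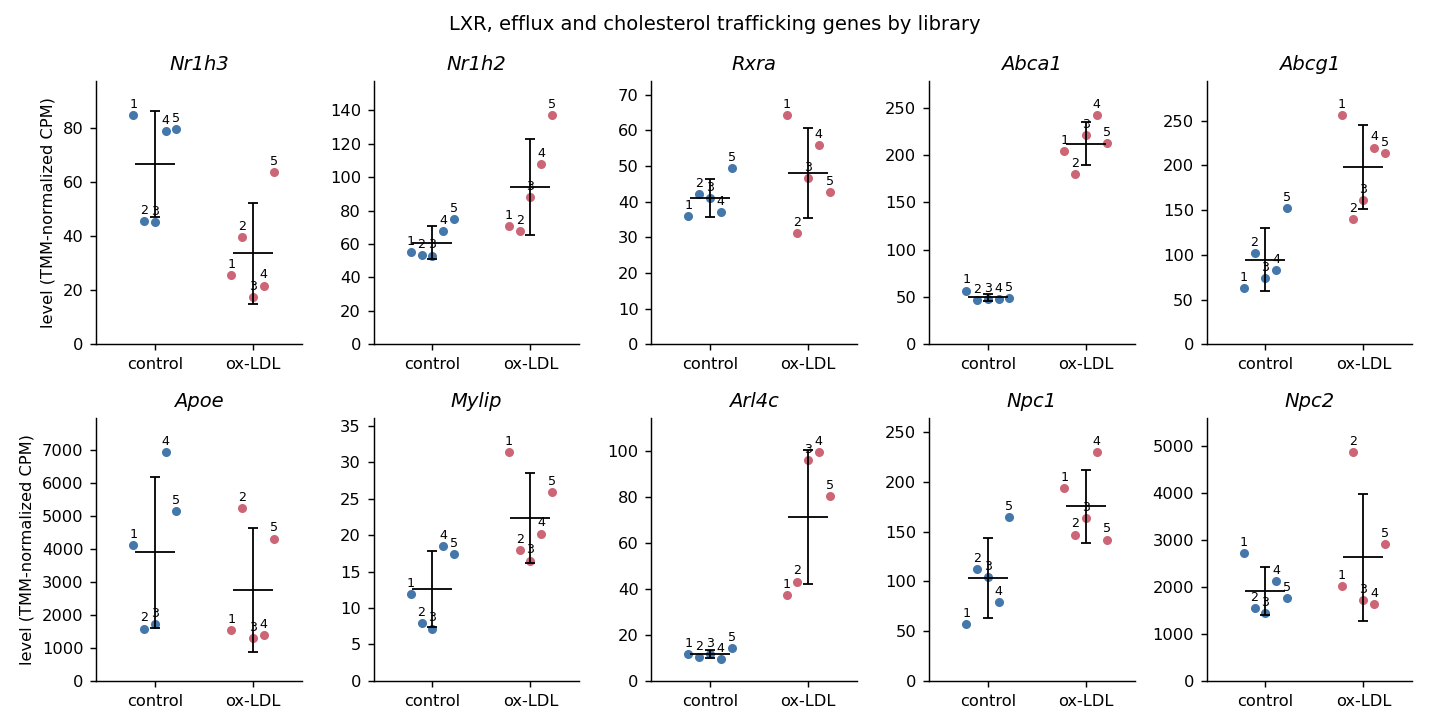
Levels of the 10 genes by library in TMM-normalized CPM on linear axes that start at 0, with numbered points for the 5 control (blue) and 5 ox-LDL (red) libraries and a bar with whiskers for mean ± SD. In Abca1 and Arl4c every ox-LDL point lies above every control point, whereas the groups overlap in the other 8 genes.

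Abca1 (NCBI Gene 11303, on the minus strand of mm9 at chr4:53043659-53172767) encodes the transporter that loads cholesterol onto lipid-poor apolipoprotein A-I. Its level in controls 1 to 5 was 56.7, 47.0, 47.8, 47.4 and 48.7 CPM, and in ox-LDL 1 to 5 it was 204, 180, 221, 242 and 213 CPM. The groups stood far apart, with the lowest ox-LDL library above 3 times the highest control. The mean went from 49.5 ± 4.05 to 212 ± 22.9 CPM, a log2 fold change of 2.10 (SE 0.17, edgeR adjusted p = 1.19e-05). On this scale its coefficient of variation, 8.18% in controls and 10.8% in ox-LDL, was the lowest of the 10 genes. On the FPKM scale, which has no TMM step, it was 7.02% in controls and 31.7% in ox-LDL, where Npc2 was lower at 19.6%. Abca1 passed the threshold in all 24 alternative analyses, with log2 fold changes from 1.70 to 2.14.

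Arl4c (NCBI Gene 320982, minus strand, mm9 chr1:90569700-90598796) encodes a small GTPase of the ARF-like family and is a known LXR target. It was measured at 11.6, 10.5, 11.7, 9.58 and 14.3 CPM in controls 1 to 5, and at 37.4, 43.2, 95.9, 99.5 and 80.2 CPM in ox-LDL 1 to 5. No ox-LDL library overlapped a control, and ox-LDL 1 and 2 lay well below the other 3. The mean rose from 11.5 ± 1.79 to 71.2 ± 29.2 CPM (log2 fold change 2.63, SE 0.30, edgeR adjusted p = 8.3e-05). Arl4c also passed in all 24 alternative analyses, with log2 fold changes from 2.03 to 2.79. The 2 genes without overlap between groups were both higher in ox-LDL, which held for 11.6% of all genes tested, while 9.11% lay without overlap below the controls.

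The promoters of these 2 genes are shown because LXR binds a direct repeat of the hexamer AGGTCA with 4 bases between the copies (DR4). RefSeq windows (GRCm38.p6) of 300 bases ran from 250 before to 50 after a start site. Abcg1 and Npc1 were left out, so whether their promoters hold a match is not shown. The windows were used for the other 8 of the 10 genes. Each matched 1 place on its own chromosome in mm9, and the other chromosomes were not searched. Searched on both strands with up to 1 mismatch per hexamer, a DR4 was found in 0 of these 8 genes and in 1.59% of the 9618 tested genes with a window. A looser search, chosen after that result, allowed 3 mismatches in all and 2 in a hexamer, and it found a match in Abca1 and Arl4c and in 18.18% of tested genes. The stretches below run 5′ to 3′ along the gene's strand with 30 bases on each side of the match, which is in capitals and reads as a DR4 on the opposite strand.
Abca1: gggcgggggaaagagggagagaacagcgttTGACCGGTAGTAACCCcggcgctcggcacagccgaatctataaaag
Arl4c: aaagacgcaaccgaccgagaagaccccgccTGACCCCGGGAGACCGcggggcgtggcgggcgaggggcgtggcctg
The Abca1 stretch lies at chr4:53172789-53172864 and the Arl4c stretch at chr1:90598786-90598861 of mm9, both on the minus strand. The match spans 67 to 52 bases before the start site in Abca1 and 65 to 50 in Arl4c, where another match overlaps it from 75 to 60. These are matches of letters, and binding was not measured in these cells.

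Abcg1 (NCBI Gene 11307, plus strand, mm9 chr17:31194643-31252722) encodes the transporter that passes cholesterol to mature high-density lipoprotein. Its control levels were 62.4, 102, 73.9, 82.8 and 152 CPM, and its ox-LDL levels were 256, 140, 161, 220 and 214 CPM. Control 5 lay above ox-LDL 2, so the groups overlapped by that pair of libraries. The mean was 94.6 ± 35.2 CPM in controls and 198 ± 47.0 in ox-LDL (log2 fold change 1.07, SE 0.27, edgeR adjusted p = 0.0124). The log2 fold change stayed between 0.84 and 1.30 over the 24 alternatives, and 6 of them called it, the threshold of 0.05 included. Without control 5 it was 1.30 (edgeR adjusted p = 0.00355), and without ox-LDL 2 it was 1.13 (edgeR adjusted p = 0.00394). With each library's length trend removed the adjusted p was 0.00724, and in DESeq2 it was 0.000819.

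Apoe (NCBI Gene 11816, minus strand, mm9 chr7:20281458-20284515) encodes the secreted apolipoprotein E. It was read at 4115, 1585, 1729, 6929 and 5133 CPM in controls 1 to 5, and at 1527, 5222, 1288, 1396 and 4309 CPM in ox-LDL 1 to 5. Each group held low libraries, between 1288 and 1729 CPM, and high ones, between 4115 and 6929 CPM, and the groups overlapped throughout. The means were 3898 ± 2281 CPM in controls and 2748 ± 1871 in ox-LDL (log2 fold change -0.50, SE 0.54, edgeR adjusted p = 0.532), so the difference lay within the spread between libraries. Apoe is a short gene, of 1104 bases as implied by the deposited values. Its high libraries were ox-LDL 2, control 1 and control 4, in which short genes stood high, and control 5 and ox-LDL 5, in which they did not. The rank correlation of deviations with gene length was 0.36 in control 5 and 0.06 in ox-LDL 5. The log2 fold change was -0.92 without ox-LDL 2 (edgeR adjusted p = 0.171), -0.20 without control 4 (edgeR adjusted p = 0.840) and -0.47 with each library's length trend removed (edgeR adjusted p = 0.410).

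**Figure D2:**
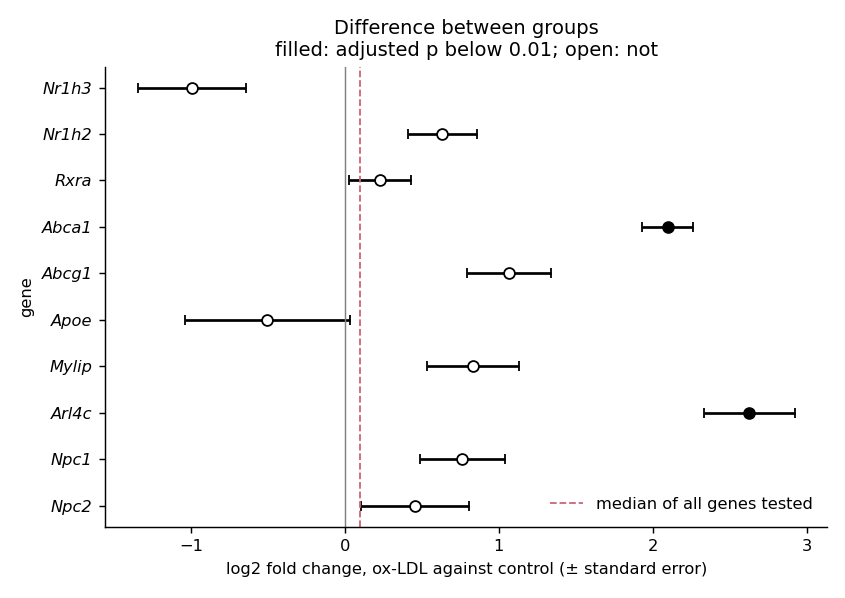
Log2 fold change of ox-LDL against control for each of the 10 genes, with whiskers of 1 standard error and a dashed line at the median of all genes tested. Filled points, an adjusted p below 0.01, are Abca1 at 2.10 and Arl4c at 2.63, and Nr1h3 at -0.99 and Apoe at -0.50 are the genes below 0.

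Nr1h3 (NCBI Gene 22259, minus strand, mm9 chr2:91024218-91042991) encodes LXRα, the form that is abundant in macrophages and liver. Its levels were 84.7, 45.5, 45.2, 78.9 and 79.5 CPM in controls and 25.5, 39.7, 17.4, 21.7 and 63.6 CPM in ox-LDL. Only ox-LDL 5 lay among the controls, and the other ox-LDL libraries lay below every control. The mean was 66.8 ± 19.7 CPM in controls and 33.6 ± 18.8 in ox-LDL, with a log2 fold change of -0.99 (SE 0.35, edgeR adjusted p = 0.0559). Across the 24 alternatives it ranged from -1.35 to -0.83, and 2 of them called it, limma on log2(FPKM + 1) (-1.26, adjusted p = 0.00408) and on log2(FPKM + 0.1) (-1.30, adjusted p = 0.00464). Without ox-LDL 5 the value was -1.35 and the edgeR adjusted p was 0.0117. Another gene on the same strand, Gm13783, overlaps Nr1h3 in the annotation, so reads in the overlap could belong to either.

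Nr1h2 (NCBI Gene 22260, minus strand, mm9 chr7:51804986-51809321) encodes LXRβ, the form found in most tissues. Control libraries gave 55.1, 53.4, 53.0, 67.7 and 74.8 CPM, and ox-LDL libraries 70.6, 67.7, 88.0, 108 and 137 CPM. The highest control lay above the 2 lowest ox-LDL libraries. The mean was 60.8 ± 9.88 CPM in controls and 94.3 ± 28.9 in ox-LDL (log2 fold change 0.63, SE 0.22, edgeR adjusted p = 0.0557), which missed the threshold in all 24 alternatives.

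Rxra (NCBI Gene 20181, plus strand, mm9 chr2:27531960-27618477) encodes the common partner of LXRs and of many other nuclear receptors. Its 5 controls lay between 36.0 and 49.3 CPM and its ox-LDL libraries between 31.2 and 64.2 CPM, around them on both sides. The log2 fold change was 0.23 (SE 0.20, edgeR adjusted p = 0.441), and it was -0.01 on log2(FPKM + 0.1).

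Neither LXR gene passed the threshold of 0.01 over all genes tested. Ratios of gene pairs were read by a separate and looser criterion, an adjusted p below 0.05 over the 4 ratios compared. By that criterion the 2 LXR forms differed from each other in their change, but no ratio had an adjusted p below 0.01. The CPM ratio of Nr1h3 to Nr1h2 within a library ran from 0.853 to 1.53 in controls and from 0.202 to 0.59 in ox-LDL. Every ox-LDL library lay below every control. The log2 ratio fell by 1.68 (95% interval -2.48 to -0.87, from the pooled SD), with an exact two-sided permutation p = 0.00794, the smallest that 5 libraries against 5 allow, and p = 0.0317 adjusted over the 4 ratios compared. A ratio within a library is almost free of library scaling, and these genes have like lengths of 1652 and 1857 bases, as implied by the deposited values. With each library left out in turn the difference stayed between -1.88 and -1.49. The exact test, here and for the other ratios, takes the libraries as independent, which was not tested. Controls 2 and 3 had nearly equal ratios (0.853 and 0.855), as did ox-LDL 3 and 4 (0.202 and 0.205). Controls 2 and 3 were also near in counts of Nr1h3 (1064 and 1057), Nr1h2 (1249 and 1238) and Rxra (982 and 957). In Abcg1 they were not (2379 and 1727). A check of whether libraries of a group were too alike returned no value.

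By the same criterion for ratios, the ratio of Abca1 to Abcg1 also differed between groups. Its log2 value was -0.86 ± 0.56 in controls and 0.13 ± 0.31 in ox-LDL, so Abca1 gained 0.99 on Abcg1 (95% interval 0.33 to 1.64, exact permutation p = 0.0159, adjusted p = 0.0317). The groups overlapped in that control 1, at -0.14, lay above ox-LDL 1, at -0.33. Without ox-LDL 3 the gain was 0.90 and the adjusted exact p was 0.0529. These are ratios of CPM that are not scaled for length, so the differences between groups are read and not the ratios themselves. Abca1 and Abcg1 have unlike lengths of 9876 and 5587 bases, and the part of the length trend in their ratio was not tested.

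**Figure D3:**
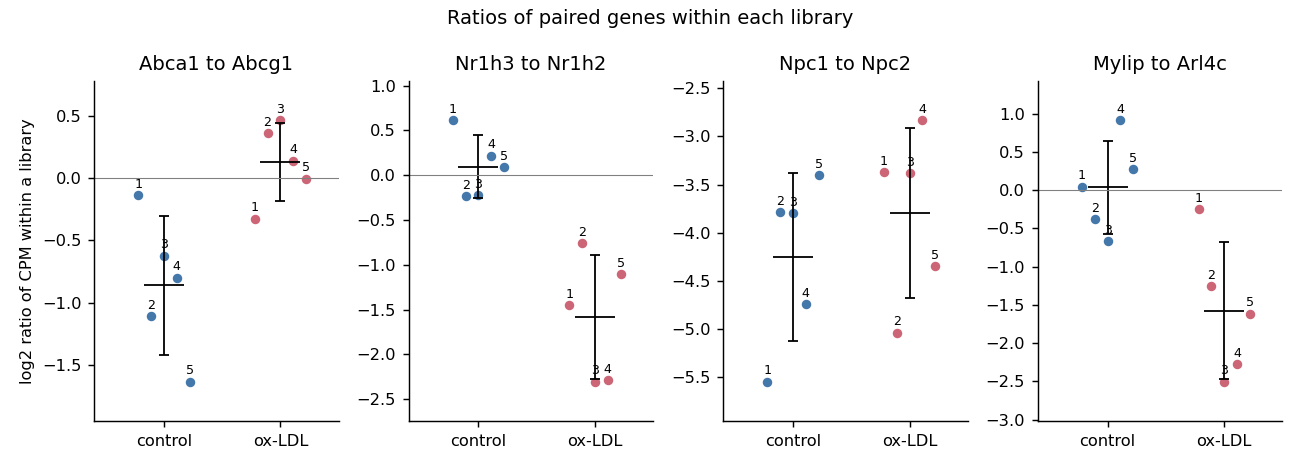
Log2 ratio of CPM within each library for 4 gene pairs, with numbered points for control (blue) and ox-LDL (red) libraries and bars of mean ± SD (n = 5). The Nr1h3 to Nr1h2 panel shows every ox-LDL library below every control, and the Npc1 to Npc2 panel shows groups that overlap.

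Mylip (NCBI Gene 218203, plus strand, mm9 chr13:45485111-45507388) encodes IDOL, an LXR-induced ubiquitin ligase that sends the LDL receptor to degradation. It was a low gene, at 11.9, 7.96, 7.19, 18.5 and 17.4 CPM in controls and 31.4, 17.9, 16.5, 20.2 and 25.9 CPM in ox-LDL. Controls 4 and 5 reached into the range of ox-LDL 2 and 3. The log2 fold change was 0.83 (SE 0.30, edgeR adjusted p = 0.0594), and no alternative called it. By the criterion for ratios, Mylip and Arl4c differed in their change. Their log2 ratio went from 0.04 ± 0.61 in controls to -1.58 ± 0.90 in ox-LDL. The change was -1.62 (95% interval -2.73 to -0.50, exact permutation p = 0.0238, adjusted p = 0.0317). Leaving out control 1, 4 or 5 or ox-LDL 3 or 4 brought this adjusted p to 0.0529, with changes from -1.61 to -1.38.

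Npc1 (NCBI Gene 18145, minus strand, mm9 chr18:12348202-12394909) encodes the membrane protein that moves cholesterol out of late endosomes and lysosomes. It was at 57.2, 112, 104, 78.9 and 165 CPM in controls and 194, 147, 164, 230 and 142 CPM in ox-LDL. Control 5 lay above 3 of the 5 ox-LDL libraries, and the other 4 controls lay below all of them. The mean was 103 ± 40.7 CPM in controls and 176 ± 36.6 in ox-LDL (log2 fold change 0.76, SE 0.28, edgeR adjusted p = 0.0602), and no alternative called it. Without control 5 the log2 fold change was 0.99 (edgeR adjusted p = 0.0165). Npc1 overlaps 2 genes on the opposite strand, and whether counting used strand is not given in the sources used here, so its reads and theirs may be mixed.

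Npc2 (NCBI Gene 67963, minus strand, mm9 chr12:86095510-86114062) encodes the soluble lysosomal protein that hands cholesterol to Npc1. Its levels were 2711, 1549, 1449, 2130 and 1755 CPM in controls and 2012, 4867, 1720, 1641 and 2910 CPM in ox-LDL. On this scale ox-LDL 2 stood far above the rest, and the other 4 lay in or close to the range of the controls. On the FPKM scale, which has no TMM step, ox-LDL 2 was also highest but by less, at 917 against 790 in control 1. The log2 fold change was 0.45 (SE 0.35, edgeR adjusted p = 0.368) and was 0.07 without ox-LDL 2 (edgeR adjusted p = 0.848). The log2 ratio of Npc1 to Npc2 differed by 0.46 between groups, and its 95% interval from -0.83 to 1.75 holds changes of either sign (exact permutation p = 0.429, adjusted p = 0.429). These genes have unlike lengths of 5025 and 3077 bases. The lowest ratios were in control 1, ox-LDL 2 and control 4, in which short genes stood high. The part of gene length in the spread of this ratio was not tested.

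Levels of different genes were compared per length, in FPKM, which scales fragments for gene length and library size. In controls Apoe was far the highest at 3594 ± 1963 FPKM, rank 28 in the table, followed by Npc2 at 643 ± 96.7. Then came Nr1h3 at 42.0 ± 10.2, Nr1h2 at 34.6 ± 6.92, Npc1 at 22.4 ± 10.5 and Abcg1 at 18.2 ± 7.96 FPKM. Rxra had 9.48 ± 2.13 FPKM, Abca1 5.27 ± 0.37, Mylip 5.07 ± 2.19 and Arl4c 3.25 ± 0.724. Neighbours in this order overlapped in their libraries from Nr1h3 down to Rxra and from Abca1 down to Arl4c, while Apoe, Npc2 and the step from Rxra to Abca1 were clear of their neighbours.

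In ox-LDL the first places were again Apoe at 2035 ± 894 FPKM, rank 54, and Npc2 at 725 ± 142. Below them were Nr1h2 at 47.8 ± 16.9, Abcg1 at 34.6 ± 14.7, Npc1 at 33.8 ± 14.0 and Abca1 at 20.6 ± 6.52 FPKM. The lowest were Arl4c at 18.2 ± 9.49, Nr1h3 at 17.7 ± 8.04, Rxra at 10.3 ± 4.85 and Mylip at 8.73 ± 3.80 FPKM. From Nr1h2 down, each gene overlapped the next. Abca1 stood above Nr1h3 on average in ox-LDL and far below it in controls, where the lowest Nr1h3 library at 31.4 FPKM exceeded the highest Abca1 library at 5.58.

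The genes whose pattern over the 10 libraries was most like Abca1, by the root mean square difference of centred log2 CPM, were Hrc at 0.153, Gm1966 at 0.183 and Dtnb at 0.185, against a median of 1.11 for all other genes. Hrc was near the limit of detection, at 0.0456 CPM in controls and 1.64 in ox-LDL. Its log2 fold change was 4.98, against 2.10 for Abca1, so its likeness rests on the 0.5 added to CPM before the log. Among the 10 genes Arl4c was nearest to Abca1, with a difference of 0.416 and rank 113, and Abcg1 had rank 701. Near to Abcg1 were Adar at 0.211 and Pag1 at 0.241 (median 0.789), and Npc1 had rank 28 at 0.283. All these values share the same libraries, so they describe a pattern in these samples.

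The wider pathway was described with 83 further genes in 6 hand-written lists, of which 71 were tested. At an adjusted p below 0.01, 6 were higher and 6 lower in ox-LDL, which is 8.45% each way against 9.4% and 5.35% of all genes tested, and their median log2 fold change was 0.06. Of the 12 called genes, Pparg, Stard4, Insig1 and Cyp27a1 were called in all 24 alternatives, Hsd3b7 in 23 and Cav1 in 22 of 24, and Lrp8 in 21 of 22. The calls of Elovl5, Ppard, Nrip1, Med1 and Nceh1 were less firm, with 12, 10, 11, 9 and 15 of 24 alternatives, and none of these 5 was called with libraries scaled by size alone. Of 14 tested other LXR target genes, 1 passed, the fatty acid elongase gene Elovl5, which fell from 63.1 ± 16.3 to 31.2 ± 8.26 CPM (log2 fold change -1.01, SE 0.23, edgeR adjusted p = 0.00709). The median of that list was -0.46, with 5 genes above 0 and 9 below. At an unadjusted p below 0.05 in edgeR, 3 of its genes were higher and 5 lower, against 23.0% and 15.8% of all genes tested. Its 2 most abundant genes did not pass, the lipoprotein lipase gene Lpl with means of 1874 CPM in controls and 1175 in ox-LDL (adjusted p = 0.121) and Smpdl3a with 461 and 339 CPM (adjusted p = 0.263).

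**Figure D4:**
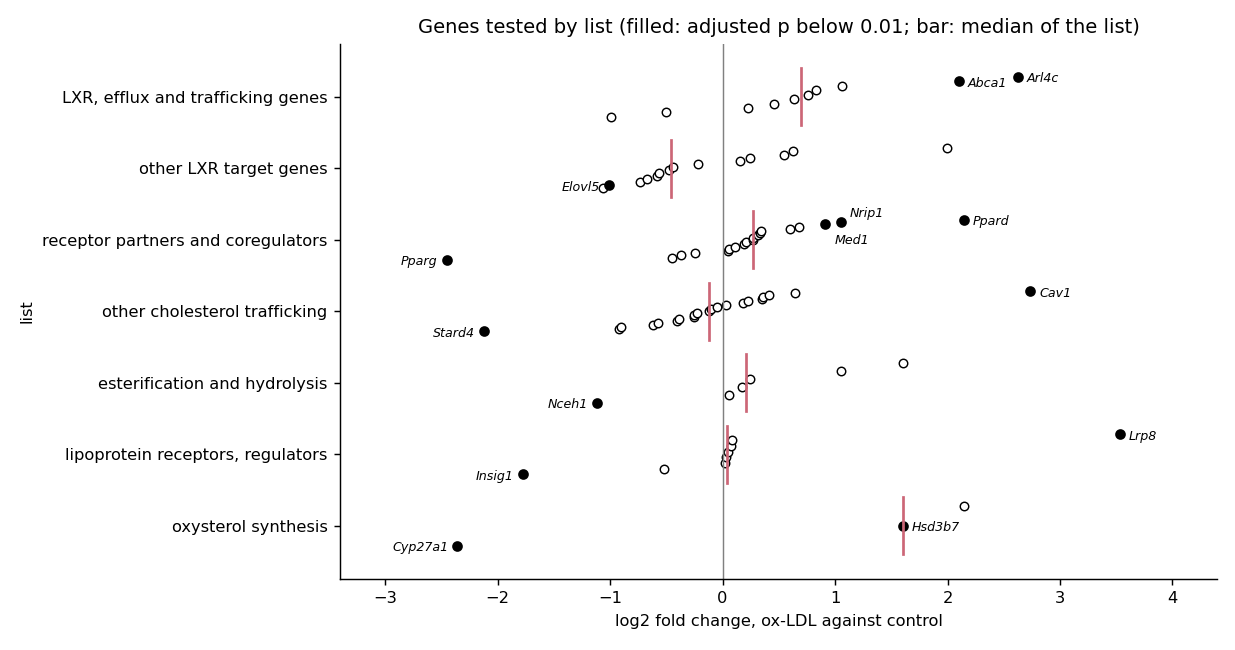
Log2 fold change of ox-LDL against control for each tested gene of the 10 LXR, efflux and trafficking genes and of the 6 other lists, with filled points for an adjusted p below 0.01 and a red bar for each list's median. The 12 filled points outside the top row are 6 above 0, with Lrp8 highest at 3.53, and 6 below, with Pparg lowest at -2.45.

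Among 19 tested receptor partners and coregulators, 3 rose and 1 fell (list median 0.27). That is 15.8% and 5.26%, against 9.4% and 5.35% of all genes tested. With so few genes per list, the counts here and in the lists below are not read as results about the lists. Pparg, a lipid-sensing receptor that also pairs with RXR, fell from 109 ± 23.4 CPM (77.6 to 137) to 20.0 ± 5.78 CPM (14.1 to 29.0), without overlap (log2 fold change -2.45, SE 0.24, edgeR adjusted p = 3.66e-05). Its relative Ppard rose from 5.70 ± 2.38 to 25.2 ± 14.6 CPM (log2 fold change 2.14, edgeR adjusted p = 0.00526), but ox-LDL 2 at 5.14 CPM stayed within the control range of 4.20 to 9.90. The corepressor gene Nrip1 rose from 6.42 to 13.3 CPM (edgeR adjusted p = 0.00669), and the Mediator subunit gene Med1 from 16.6 to 31.2 CPM (edgeR adjusted p = 0.00926). The corepressor Ncor1 (log2 fold change 0.33, adjusted p = 0.255) and the coactivator Ncoa3 (0.11, adjusted p = 0.798), were the most abundant genes of the list without a call.

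Of 21 tested genes of intracellular cholesterol trafficking, 1 rose and 1 fell (list median -0.12). Stard4, which carries cholesterol between membranes in the cytosol, fell from 33.0 ± 9.48 to 7.54 ± 2.17 CPM without overlap (log2 fold change -2.12, SE 0.26, edgeR adjusted p = 1.65e-04). Cav1, which encodes caveolin-1, rose from 6.29 ± 1.85 to 42.0 ± 28.4 CPM (log2 fold change 2.74, SE 0.46, edgeR adjusted p = 0.00117). Beside Cav1, the summed level of 6 mesothelial and stromal markers was 14.2 to 43.8 CPM in controls and 60.0 to 127 in ox-LDL on the library-size scale, led by Dcn, with Msln and Upk3b below 1 CPM throughout, and their part in the rise of Cav1 was not tested. Lipa, the lysosomal acid lipase gene, had 1721 ± 131 CPM in controls and 911 ± 234 in ox-LDL without overlap, and missed the threshold (log2 fold change -0.92, edgeR adjusted p = 0.0193), as did Lamp1 with 2285 and 1725 CPM (adjusted p = 0.186).

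In the list of ester formation and hydrolysis 1 of 6 genes passed. Nceh1, a neutral cholesterol ester hydrolase, fell from 320 ± 46.1 to 147 ± 45.6 CPM (log2 fold change -1.12, edgeR adjusted p = 0.00456). The lipid droplet gene Plin2 was at 2081 ± 455 CPM in controls and 4307 ± 1368 in ox-LDL (log2 fold change 1.05, edgeR adjusted p = 0.0203), and the esterifying enzyme gene Soat1 was at 327 and 340 CPM. The list median was 0.21.

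Among 8 tested lipoprotein receptors and regulators 1 rose and 1 fell (list median 0.04). Lrp8, a receptor of the LDL receptor family that binds apolipoprotein E, rose from 1.68 ± 0.41 to 19.5 ± 7.79 CPM (log2 fold change 3.53, SE 0.33, edgeR adjusted p = 2.74e-05). Insig1, which holds the sterol regulatory proteins in the endoplasmic reticulum and is a target of theirs, fell from 146 ± 40.2 to 42.6 ± 8.76 CPM (log2 fold change -1.78, SE 0.25, edgeR adjusted p = 3.94e-04). Lrp1, the most abundant without a call, had a log2 fold change of 0.07 (adjusted p = 0.904).

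In the list named for oxysterol synthesis 3 of 6 genes were tested, of which 1 rose and 1 fell. This list mixes enzymes that form oxysterols with enzymes that act on them. Its median log2 fold change, 1.60, was the value of Hsd3b7, so it is not read as a rise of oxysterol synthesis. Cyp27a1, the sterol hydroxylase whose product activates LXRs, fell from 13.2 ± 4.58 CPM (6.89 to 18.4) to 2.59 ± 1.05 CPM (1.61 to 3.94), a log2 fold change of -2.36 (SE 0.34, edgeR adjusted p = 4.17e-04). Hsd3b7, an enzyme of bile acid synthesis that acts on hydroxylated sterols, rose from 37.8 ± 9.08 to 115 ± 23.5 CPM (log2 fold change 1.60, SE 0.22, edgeR adjusted p = 3.4e-04). Cyp7b1 was barely detected, at means of 0.319 and 1.42 CPM (edgeR adjusted p = 0.0198). Ch25h, the cholesterol 25-hydroxylase gene, had too few reads for the main test and is named here after its values were seen. Its counts were 0, 0, 0, 1 and 3 in controls 1 to 5 and 8, 21, 33, 50 and 41 in ox-LDL 1 to 5, so every ox-LDL library lay above every control. It was tested in 8 alternatives with other filters or fewer libraries, and 7 of them called it higher in ox-LDL. Vldlr, a lipoprotein receptor gene likewise left out for low counts, had 2, 0, 10, 3 and 7 counts in controls and 24, 4, 41, 44 and 28 in ox-LDL, and was called in 3 of 8 such alternatives. In the alternatives with fewer libraries both genes passed the read filter through their ox-LDL libraries. These calls are therefore not independent support for a difference.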

How the data were processed

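Per the submitters' processing notes, the tools were FastQC, HISAT2 (version 2.0.5), SAMtools (version 1.4) and StringTie (version 1.3.3.13), with alignment to mm9. The authors deposited estimated counts per gene (13.6% of values not whole); the counting step and its use of strand are not given in the sources used here. A further deposited value for each gene has no named unit and was treated as FPKM because counts divided by it gave a near constant length per gene (median coefficient of variation 0.673% over 2543 genes). Counts were rounded, 9788 circular RNA rows left out, and genes tested with edgeR 4.0.16 in R 4.3.3 (filterByExpr, TMM, quasi-likelihood, robust) with Benjamini-Hochberg adjustment over 12654 genes. The threshold was an adjusted p below 0.01. The standard error was taken as the fold change divided by the root of F. Fold changes on log2(FPKM + 1) understate the change of low genes. The alternatives were DESeq2 1.42.0, limma 3.58.1 on voom or on log2(FPKM + 1) or log2(FPKM + 0.1), other scaling, filters and rows, a length-trend offset, a replicate block and each library left out. Ratios used CPM + 0.5 and were read at an adjusted p below 0.05 over the 4 pairs. The procedure was tested on counts simulated with a common spread for all genes and no length trend. That test does not cover the length trends of these libraries. Symbols came from a RefSeq table of GRCm38.p6 and positions from GENCODE on NCBIM37, which is mm9. Named were the 10 genes and, per list, up to 4 called in each direction and the 2 most abundant without a call. The genes and lists were chosen with earlier results of these data known. Values of some single genes named by this rule are not reported here.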

Additional observations from a re-analysis of the deposited data

Results flagged for a closer look

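The value of Abca1 in control 1, 56.7 CPM, stood apart from the other 4 controls at 47.0 to 48.7 CPM. Its gap to the nearest of them was 0.82 of the group's whole range, above the limit of 0.71 for 5 samples. This was 1 flag among 28 groups of 5 examined, where chance gives 1.4. Without control 1 the log2 fold change of Abca1 remained past the threshold.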

How the results depend on the processing

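Abca1 and Arl4c passed the threshold in all 24 alternatives. The number of all genes called, 1866, became 3009 in DESeq2, 2861 with the length trend removed, 3365 at an adjusted p below 0.05, 983 on log2(FPKM + 1) without a filter, and 1262 to 3257 with 1 library left out, the highest without ox-LDL 2. Limma on log2(FPKM + 1) gave 570 higher and 769 lower genes in place of 1189 and 677, and the median of all genes moved from 0.10 to -0.14 there, to -0.05 with upper-quartile scaling and to -0.09 with library size alone. Limma on log2(FPKM + 1) and on log2(FPKM + 0.1) called 1 of the 10 genes lower, Nr1h3, and on the latter Rxra was at -0.01. In place of 6 higher pathway genes, 3 were called with library size alone, 2 on log2(FPKM + 1), 1 on log2(FPKM + 0.1), 0 on log2(FPKM + 1) without a filter, and 3 to 8 with 1 library left out, 3 of them without ox-LDL 3 or 4. In place of 6 lower ones, 10 were called in DESeq2, 13 with the length trend removed, 10 at an adjusted p below 0.05, and 4 to 10 with 1 library left out. The change of the Mylip to Arl4c ratio was -1.95 to -1.38 and that of Abca1 to Abcg1 0.79 to 1.17 with 1 library left out. The cause of these moves was not tested.

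The labels do not say whether libraries with the same replicate number share an animal or day. The deviations of same-numbered libraries correlated at 0.489 and 0.422 for numbers 3 and 5 and between -0.366 and -0.011 for the other 3, so the numbers were not taken to pair the samples. With the replicate number as a block, 1434 genes were called, 2 of the 10 genes were higher and 0 lower, and 3 pathway genes were higher and 4 lower. Of the 5 control libraries, 1 correlated best with its own number. Intervals and tests cover the spread between these 10 libraries and take them as independent, which was not tested. Counts under about 1 CPM, as for Cyp7b1 and Hrc, limit what can be said of such genes.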
